A study of Mus musculus with 18 samples.

Results

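The subject is the single-cell RNA sequencing of lineage-traced cells from the mouse small intestine, in which 2 libraries of Setdb1-KO cells were compared with 2 libraries of WT cells, 4 of the 8 single-cell RNA libraries in the series. Members were all barcodes with 500 to 18000 UMIs (unique molecular identifiers, the counted RNA molecules), 200 to 4000 genes and under 5% of UMIs from mitochondrial genes, and the UMIs of these barcodes were summed per library, so that the library was the replicate. The rule kept 26266 barcodes, namely 7589 and 3696 in WT 1 and WT 2, and 4758 and 10223 in Setdb1-KO 1 and Setdb1-KO 2. All mice were male, 60 to 65 days old and on the C57Bl6 background, and all received tamoxifen once, at 70 mg/kg into the peritoneum with corn oil as the vehicle, 5 days before analysis, the WT included. WT mice were Lgr5-GFP-CreERT2/nTnG and Setdb1-KO mice carried Setdb1lox/lox in addition. Crypts came from the ileum, and GFP+ cells were sorted, fixed in 10% DMSO and stored frozen. The nTnG allele switches a nuclear reporter from tdTomato to EGFP once Cre has acted, so the GFP+ gate held Lgr5+ cells together with their progeny. The Lgr5 knock-in is expressed in a mosaic fashion, so not every crypt carried labelled cells. The study calls its single-cell libraries biological replicates, without saying for the lineage-traced cells whether each came from a separate mouse, and p-values measure the spread between these libraries.

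Setdb1 is a histone methyltransferase that places trimethyl marks on lysine 9 of histone H3, a mark of silent chromatin that keeps retroelements and some genes off. Lgr5+ stem cells at the crypt base divide and give rise to absorptive enterocytes, which mature as they move up the villus, and to the secretory goblet, Paneth, enteroendocrine and tuft cells. Mature enterocytes carry the digestive enzymes of the brush border, take up sugars, amino acids, fat and bile acids, and detoxify foreign compounds. Paneth cells stay at the crypt base and secrete antimicrobial defensins, encoded by the Defa genes.

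The 4 libraries held 16881518 to 43046925 UMIs in all barcodes, of which 29.3% to 62.1% lay in kept barcodes. Median UMIs per kept barcode ran from 970.5 to 2087, and in no pair of lineage-traced libraries did more than 0.357% of either library's kept barcodes carry a sequence seen in both. WT 2 stood apart: 29.3% of its UMIs were in kept barcodes against 53.02% to 62.1% in the other 3 libraries, 420685 of its barcodes held 10 to 100 UMIs against 11998 to 39546, and Defa genes took a median 32.5% of the UMIs of a kept barcode against 1.92% to 10.6%. The counts of called genes and the lists the results turn on are therefore also given without it. Markers of T cells, B and plasma cells, myeloid, stromal and endothelial cells, and erythroid cells were low. Of their 43 genes, 7 passed the filter on low counts and their summed levels were at most 18.2 CPM (UMI counts per gene scaled to the same total in every library) in any list and library. Hba-a1, Hbb-bs, Alas2, Adgre1 and Itgax were among those at or near 0. Of the 7, the myeloid marker C1qa was called higher, with 4 and 1 UMIs in WT and 13 and 47 in Setdb1-KO (log2 fold change 2.66, edgeR adjusted p = 0.00975, not called without WT 1 or without Setdb1-KO 2). Among fits described below, its call was also lost with DESeq2, after subtraction of free RNA and with all 8 libraries in one fit. The T cell marker Ccl5 had 88 and 61 UMIs in WT, none in Setdb1-KO 1 and 387 in Setdb1-KO 2. The part of such cells in the results was not tested. The reporter sequence GFP had 6, 0, 10 and 11 UMIs over all barcodes of WT 1, WT 2, Setdb1-KO 1 and Setdb1-KO 2 and could not serve as a check on the sort.

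Setdb1 itself was counted at 7.13 and 5.34 CPM in WT and at 7.95 and 7.20 CPM in Setdb1-KO, with levels scaled by TMM, a method that matches libraries on the bulk of their genes. The log2 fold change was 0.24 ± 0.24 (SE, n = 2 libraries per group, adjusted p = 0.618 by the quasi-likelihood test of edgeR, corrected over all genes tested by the method of Benjamini and Hochberg). The Setdb1 gene spans chr3:95323525-95357202 on the minus strand of GRCm38. The deleted exon lies far from the 3′ end that these libraries read, so the count is no direct check of the deletion. In the Lgr5+ sort of the same series, also read from the 3′ end, Setdb1 was lower in Setdb1-KO, with 9.27 and 8.89 CPM in WT against 4.31 and 5.69 CPM (log2 fold change -0.85 ± 0.18, SE, n = 2 libraries per group, edgeR adjusted p = 0.038), and the effect differed between the 2 kinds of sample (edgeR adjusted p = 0.0352).

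Far more genes were lower than higher in Setdb1-KO, and most of the lower ones were genes of enterocytes. Of 12201 genes tested, 882 were lower in Setdb1-KO (7.23%) and 191 were higher (1.57%) at an adjusted p under 0.05. Of those, 321 were at least 4-fold lower, 77 at least 16-fold lower, 55 at least 4-fold higher and 13 at least 16-fold higher. In all 1073 called genes both Setdb1-KO libraries lay on the same side of both WT libraries. A call with so few libraries per group leans on such separation, so it adds no support. Its share over all genes tested was not counted. The median log2 fold change over all genes tested was 0.01. This split rests on the scaling: with no scaling beyond library totals the median of all genes moved to 0.53, and 3320 genes were higher and 495 lower. The split also moved with single libraries. It was 137 higher and 661 lower without WT 2, 69 and 526 without WT 1, and 820 and 1315 without Setdb1-KO 1. Of the called genes, 99 of the 191 and 623 of the 882 were still called without WT 2, and all 1073 kept the sign of their change. After subtraction of the expected free RNA, with its share estimated from the median barcode as described below, 36 genes were higher and 201 lower. With the share estimated from barcodes rich in enterocyte transcripts, an alternative chosen after seeing the data, 148 were higher and 687 lower. In sums over all cells, fewer cells of a type and less RNA per cell cannot be told apart.

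To see which cells these genes belong to, the kept WT barcodes alone were clustered, clusters were named from marker genes, and each gene was assigned to the named class in which its level was highest. Of the 882 lower genes, 614 had their highest WT level in the enterocyte-like class (69.6%), against 1720 of the 12103 genes tested that could be assigned (14.2%). The Paneth-like class was the home of 51 lower genes (5.78%, against 0.512% of all). Read the other way, 35.7% of the genes at home in the enterocyte-like class and 82.3% of those at home in the Paneth-like class were called lower, with median log2 fold changes of -0.62 and -1.93. Of the genes called lower without WT 2, 642 could be assigned and 468 of them were at home in the enterocyte-like class (72.9%). For those genes the home classes still came from both WT libraries, so WT 2 took part in them. Of the assigned genes tested in that fit, 14.2% were at home in the enterocyte-like class. Only 6 of the 882 lower genes were at home in the proliferating class and 5 in the stem-like class. The leading genes of the stem-like class were Ccl5, a chemokine of lymphocytes, and Olfm4. The higher genes were spread differently. Of the 152 that could be assigned, 43 were at home in the enteroendocrine-like class (28.3%, against 35.8% of all), 42 in the tuft-like class (27.6%, against 15.4%), 27 each in the stem-like and proliferating classes (17.8% each, against 6.80% and 17.6%) and 3 in the enterocyte-like class. The tuft-like and enteroendocrine-like classes held 137 and 69 barcodes, so homes in them rest on few cells. Clusters of 2066, 735, 583 and 365 of the 11285 WT barcodes stayed unnamed and gave no home. WT 2 made up 1463 barcodes of the first and 521 of the second of these.

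**Figure D1:**
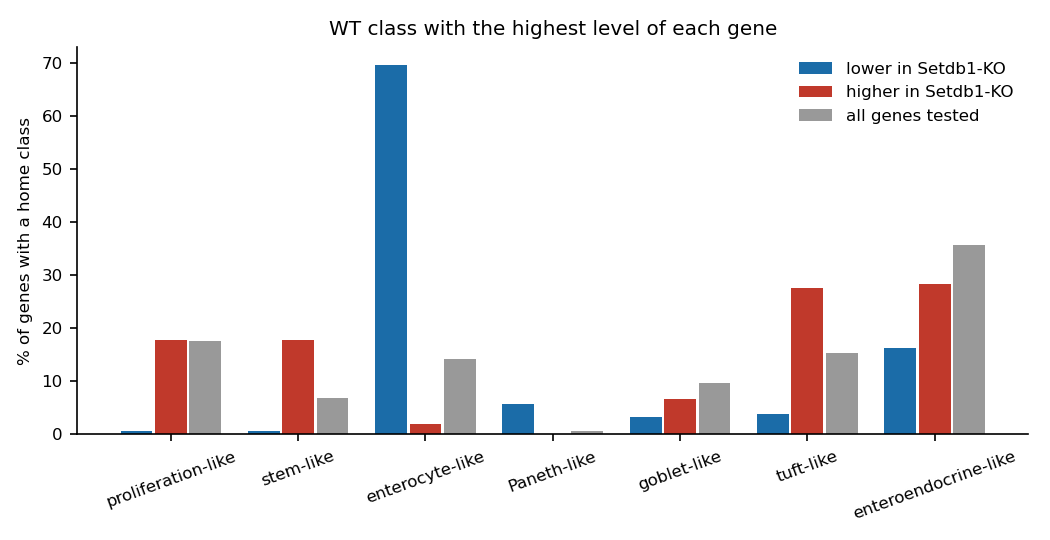
Percentage of genes (y axis) whose highest WT level lay in each named class of cells (x axis), for genes lower in Setdb1-KO, genes higher in Setdb1-KO and all genes tested. The enterocyte-like class was the home of 69.6% of the lower genes and 14.2% of all genes tested.

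Of the 15 lower genes with the smallest p-values, 14 had their highest WT level in the enterocyte-like class, digestive and detoxifying enzymes among them. Cyp3a11, a cytochrome P450 that oxidises drugs and steroids, was at 259 and 249 CPM in WT and at 1.35 and 1.10 CPM in Setdb1-KO. Both Setdb1-KO libraries were thus far under both WT libraries, with a log2 fold change of -7.72 ± 0.37 (SE, n = 2 libraries per group, edgeR adjusted p = 9.15e-08). Akp3, an alkaline phosphatase of the brush border, had 40.7 and 47.1 CPM in WT and 0.338 and 0.240 CPM in Setdb1-KO. Tmprss15, the enteropeptidase that activates trypsinogen, had 37.4 and 29.7 CPM against 0.169 and 0.171 CPM. The Tmprss15 counts were 613 and 189 UMIs in WT and 2 and 5 UMIs in Setdb1-KO. Ly6m, of the Ly6 family of membrane-anchored proteins, had the largest fold change among the named genes with a mean over 20 CPM, at 64.5 and 76.6 CPM in WT against 0.0845 and 0.343 CPM in Setdb1-KO (log2 fold change -8.03 ± 0.40, SE, n = 2 libraries per group).

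The other lower genes of that set were of the same order. Among genes of drug and sulphur metabolism, Cyp3a25 fell from 25.5 and 27.5 CPM to 0.423 and 0.377 CPM, Cyp2b10 from 17.2 and 17.3 CPM to 0.423 and 0.343 CPM, and Sult6b2, a sulfotransferase, from 52.3 and 41.9 CPM to 0.507 and 0.617 CPM. Cyp2c29 had 304 UMIs over both WT libraries and 2 over both Setdb1-KO libraries, a ratio of 274 with a 95% counting interval of 75.1 to 2270. Ggt1, which cleaves glutathione at the cell surface, fell from 34.6 and 34.1 CPM to 0.338 and 0.103 CPM. Ada, adenosine deaminase, was at 118.5 and 122 CPM in WT and at 2.54 and 2.95 CPM in Setdb1-KO. Slc2a2, the glucose carrier of the basolateral membrane, was at 14.9 CPM in both WT libraries and at 0.0845 and 0.240 CPM in Setdb1-KO. Slc30a10, an exporter of manganese, had 20.1 and 18.4 CPM against 0.507 and 0.240 CPM. Clca4a had 64.4 and 59.4 CPM against 1.27 and 0.891 CPM, and 2010106E10Rik had 26.8 and 25.8 CPM against 0.930 and 1.06 CPM. The exception to the enterocyte pattern was Gm47283, annotated on chrY:90784738-90816464, which had its highest WT level in the stem-like class. Gm47283 had 38.8 and 53.2 CPM in WT and 0.592 and 0.480 CPM in Setdb1-KO, and as reads of copied genes can be split, its level is uncertain. For the 15 genes together the log2 fold changes ran from -8.03 to -4.68 and the adjusted p-values from 9.15e-08 to 1.85e-07. All 15 stayed called in each of the 20 alternative fits.

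**Figure D2:**
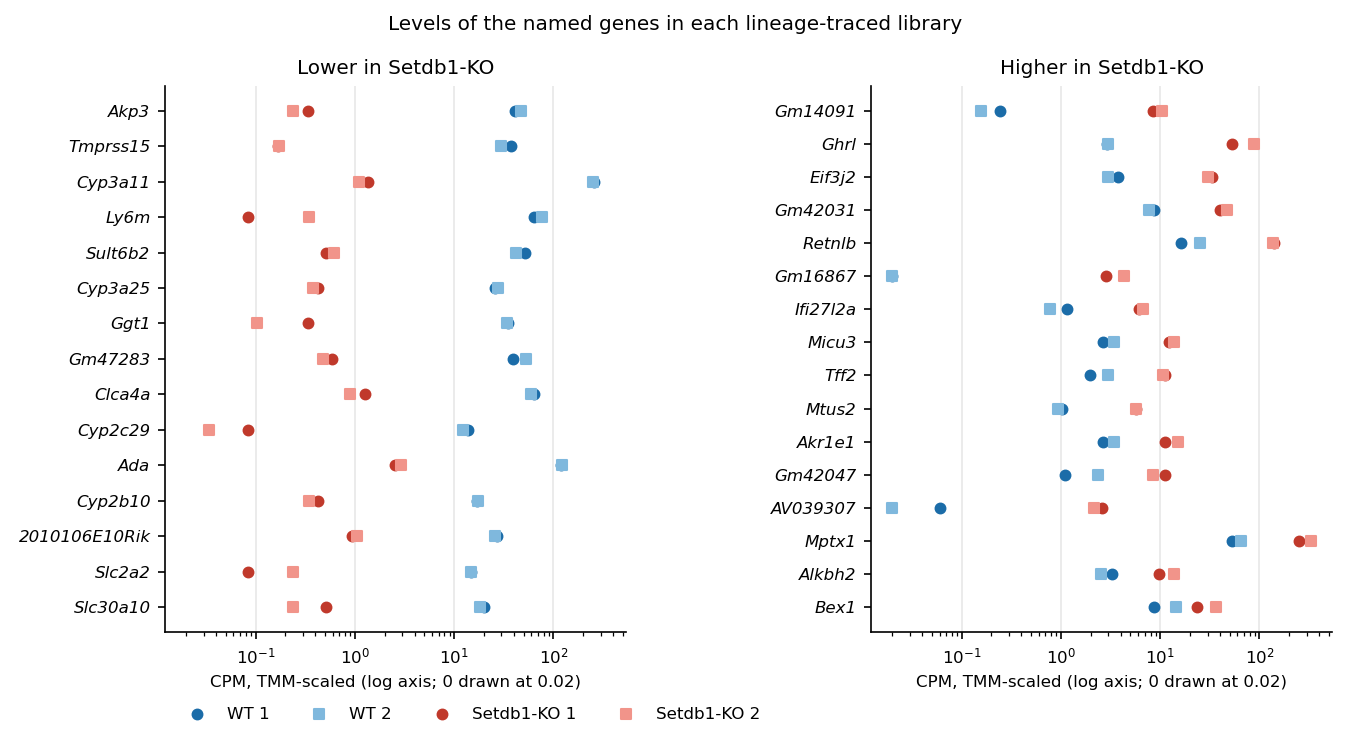
TMM-scaled CPM (x axis, log scale, with 0 drawn at 0.02) of each named gene in each of the 4 lineage-traced libraries, lower genes on the left and higher genes on the right. In every row the 2 Setdb1-KO points lie on one side of the 2 WT points, as the rule for naming these genes required. Cyp3a11, for example, was at 259 and 249 CPM in WT against 1.35 and 1.10 CPM in Setdb1-KO.

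All 18 enterocyte markers were called lower in Setdb1-KO, against 7.23% of all genes tested. Their log2 fold changes ran from -5.79 to -0.97 with a median of -2.62, against 0.01 over all genes tested. Apoa4, a lipoprotein of fat export, went from 339 and 335 CPM in WT to 5.50 and 6.58 CPM in Setdb1-KO, and Apoa1 from 726 and 899.8 CPM to 22.4 and 25.6 CPM. Vil1, the microfilament protein villin that enterocytes express already in the crypt, fell less, from 104 and 108.5 CPM to 59.8 and 49.0 CPM (log2 fold change -0.97 ± 0.25, SE, n = 2 libraries per group, edgeR adjusted p = 0.0306, not called without WT 1, without WT 2 or without Setdb1-KO 2). The Vil1 call was also lost with no scaling, with at least 2000 UMIs and after subtraction of free RNA. Fabp1 and Fabp2, abundant fatty acid binding proteins, kept the highest levels of the list in Setdb1-KO, with 391 and 708 CPM against 1280.0 and 1778 CPM for Fabp1 and 637 and 1099 CPM against 2223 and 3431 CPM for Fabp2. Without WT 2, 13 of the 18 markers were called, and after subtraction of free RNA 11 were, with medians of -2.54 and -2.58.

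The functions of the enterocyte fell together. All 15 brush border enzymes were called lower, against 7.23% of all genes tested, with a median log2 fold change of -2.87. The sugar-splitting enzyme Lct, lactase, had 18.4 and 18.2 CPM in WT and 0.169 and 0.446 CPM in Setdb1-KO, and Treh, trehalase, 15.2 and 17.4 CPM against 0.507 and 0.514 CPM. Sis, sucrase-isomaltase, fell less, from 62.2 and 57.2 CPM to 10.1 and 8.37 CPM. Alpi, the intestinal alkaline phosphatase, was at 111 and 116 CPM in WT and at 5.50 and 4.46 CPM in Setdb1-KO. The smallest change of that list was that of Mgam, maltase-glucoamylase, at 56.7 and 34.0 CPM in Setdb1-KO against 102 and 82.9 CPM in WT, without overlap (adjusted p = 0.0416, edgeR). Mgam was not called without WT 1, without WT 2 or without Setdb1-KO 2. Its call was also lost with no scaling, at the higher UMI minimums and after either subtraction of free RNA.

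Of 15 genes for the uptake and packaging of fat, 14 were lower, against 7.23% of all genes tested. The other was not called, and the median of the list was -2.58. The lower ones covered the steps from uptake by Cd36 (6.40 and 3.61 CPM in WT, 0.845 and 0.480 CPM in Setdb1-KO) through triglyceride synthesis by Mogat2 (13.0 and 16.5 CPM, 1.44 and 2.78 CPM) and Dgat2 (16.1 and 17.6 CPM, 2.71 and 2.85 CPM) to chylomicron assembly by Mttp (93.5 and 100.3 CPM, 21.2 and 20.7 CPM) and Apob (199.9 and 165.5 CPM, 22.3 and 16.2 CPM). Of 18 transporters, 17 were lower, against the same 7.23%, with a median of -2.99. Slc15a1, the peptide transporter, had 14.5 and 12.3 CPM in WT and 0.507 and 0.720 CPM in Setdb1-KO, and Slc6a19, the carrier of neutral amino acids, 20.7 and 22.9 CPM against 0.507 and 1.03 CPM. The bile acid genes of the ileum were also lower, with 878 and 1580.0 CPM against 94.4 and 160.4 CPM for the binding protein Fabp6 and 47.3 and 76.2 CPM against 3.13 and 5.07 CPM for Slc51b, an export subunit. All 14 genes of drug metabolism were lower, again against 7.23% of all genes tested, with a median of -2.88. Ugt2b34 had the smallest change (91.0 and 81.2 CPM against 41.4 and 28.0 CPM, log2 fold change -1.32 ± 0.27, SE, n = 2 libraries per group). After subtraction of free RNA, 11 brush border enzymes, 9 fat genes, 13 transporters and 8 drug genes were still called, with medians of -3.09, -2.53, -2.65 and -2.71. Without WT 2, 13 brush border enzymes, 12 fat genes, 17 transporters and 14 drug genes were called.

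Most transcription factors of the absorptive lineage were not called: of 18 tested, 4 were lower and none was higher, against 7.23% and 1.57% of all genes tested, with a median of -0.22. With no scaling beyond library totals 2 were lower and 3 higher, with a median of 0.32. That fit called 495 lower and 3320 higher of all 12201 genes tested. Without Setdb1-KO 2 the median of the list was -0.09. Creb3l3, a membrane-bound factor for lipoprotein genes, had 35.7 and 36.6 CPM in WT and 3.64 and 3.39 CPM in Setdb1-KO, and Maf had 40.3 and 33.0 CPM against 3.97 and 2.33 CPM. Klf4 (86.4 and 84.9 CPM against 44.3 and 31.5 CPM) and Rxra (10.8 and 8.32 CPM against 4.82 and 5.90 CPM) were lower by smaller amounts. Neither was called without WT 1 or after subtraction of free RNA, and Klf4 was not called without WT 2. The factors that set the identity of small intestinal epithelium did not pass the test. Hnf4a had 63.9 and 53.5 CPM in WT and 55.9 and 44.1 CPM in Setdb1-KO (log2 fold change -0.24 ± 0.25, SE, n = 2 libraries per group, edgeR adjusted p = 0.635), Cdx2 had 34.9 and 38.0 CPM against 31.8 and 31.5 CPM, and Gata4 had 18.3 and 18.7 CPM against 14.2 and 15.6 CPM. The number lower was 2 of 18 without WT 1 and 3 without WT 2. For Hnf4a, Cdx2 and Gata4 the sign turned positive with no scaling beyond library totals.

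**Figure D3:**
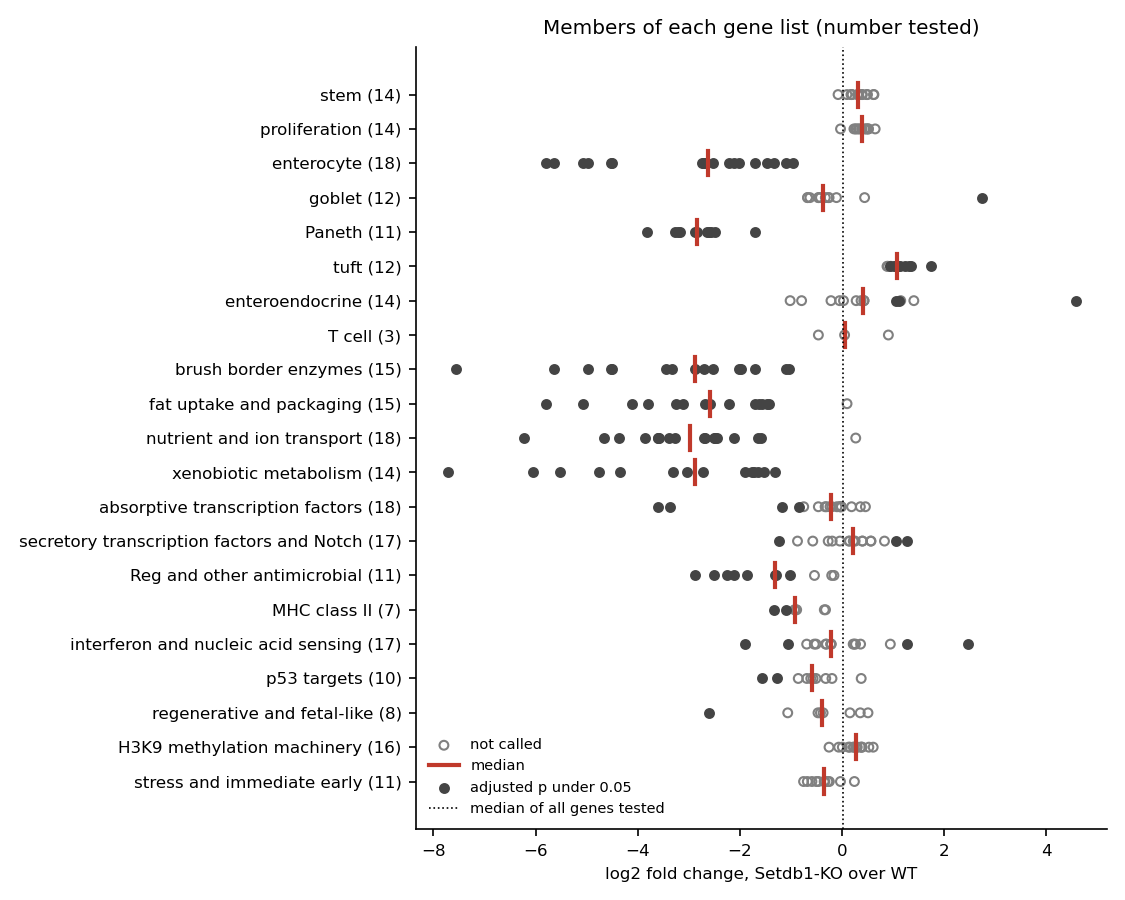
Log2 fold change of Setdb1-KO over WT (x axis) for each tested member of the gene lists (rows, with the number tested), filled where the adjusted p was under 0.05, with the median of each list as a bar and that of all genes tested as a dotted line. The enterocyte, Paneth and digestive function lists lie to the left with medians of -2.99 to -2.58, and the tuft list lies to the right with a median of 1.08.

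Because Hnf4a and Hnf4g bind the promoters of many enterocyte genes, the letters of a typical HNF4 site, CAAAGTCCA, were searched on both strands of the 250 bases before the start of each gene in RefSeq promoters (GRCm38.p6). The letters stood in 9 of 682 matched promoters of lower genes (1.32%), in none of 134 of higher genes, in 35 of 9520 of all genes tested (0.368%) and in 103 of 27025 promoters of the whole table (0.381%). All 9 genes had their highest WT level in the enterocyte-like class, where 11 of 1361 matched promoters held the letters (0.808%). A match is no evidence of binding, and no match says only that these letters are not in this window. The 9 stretches are printed below, read on the strand of the match, 5′ to 3′, with the searched letters in capitals, as a feature of the lower genes that the expression test did not use:
Cyp3a11: aagagagtacCAAAGTCCAgtgatgcaaa
Treh: ccaggtcagcCAAAGTCCAggctatgagg
Alpi: tagccagggaCAAAGTCCAtctctgattt
Cyp2c65: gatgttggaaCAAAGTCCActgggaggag
Slc3a1: cttggctggaCAAAGTCCAgccatgatta
Btnl2: gaacagagccCAAAGTCCAcctgccttcc
H2-T3: ttgcaagttaCAAAGTCCAggacttt
Cyp2c68: atcattgaaaCAAAGTCCAattggaagag
Tmem150b: ccggaagaggCAAAGTCCAggctgagtgt
They lie at chr5:145879945-145879973 (minus strand) for Cyp3a11, chr9:44673152-44673180 (minus) for Treh, chr1:87101607-87101635 (minus) for Alpi, chr19:39060880-39060908 (plus) for Cyp2c65, chr17:85028298-85028326 (plus) for Slc3a1, chr17:34354771-34354799 (plus) for Btnl2, chr17:36190152-36190177 (minus) for H2-T3, chr19:39741160-39741188 (minus) for Cyp2c68 and chr7:4725305-4725333 (plus) for Tmem150b. The site of Cyp3a11 began 109 bases before the start, and the whole 250 bases, chr5:145879855-145880104 on the minus strand, are shown as the promoter of the gene with the third smallest p-value:
Cyp3a11 promoter: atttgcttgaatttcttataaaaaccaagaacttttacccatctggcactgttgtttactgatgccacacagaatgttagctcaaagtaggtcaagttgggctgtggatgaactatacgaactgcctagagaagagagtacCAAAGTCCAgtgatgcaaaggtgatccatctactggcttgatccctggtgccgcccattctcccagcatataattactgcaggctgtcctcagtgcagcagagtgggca

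The 9 genes differed widely in their change. Cyp2c65, a cytochrome P450, had 26.5 and 26.4 CPM in WT and 3.38 and 3.12 CPM in Setdb1-KO. Slc3a1, a subunit of the cystine carrier, had 9.14 and 8.32 CPM against 0.930 and 1.58 CPM. Tmem150b and Cyp2c68 were near the threshold, with 3.29 and 5.97 CPM against 1.94 and 1.92 CPM and 9.45 and 14.8 CPM against 5.83 and 5.90 CPM. Of the other motifs searched, the HNF1 letters GTTAATNAT stood in 1.61% of the promoters of lower genes, 0.746% of those of higher genes and 0.504% of all tested. The CDX letters TTTATTG stood in 4.25%, 5.22% and 2.66%, the GATA letters AGATAA in 8.5%, 14.9% and 6.08%, and the IRF letters GAAANNGAA in 6.6%, 5.97% and 6.01%. Of the 15 lower named genes 12 had a promoter in the table, Ly6m, Gm47283 and Clca4a being without one, and of those 12 that of Cyp3a11 alone held the HNF4 letters.

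Paneth genes were lower as a group. All 11 Paneth markers were called lower, against 7.23% of all genes tested, with log2 fold changes of -3.82 to -1.71 and a median of -2.84. The median was -1.98 with no upper limits on UMIs and genes and -2.29 with barcodes thinned to 500 UMIs. All 11 stayed called in both of these fits. Lyz1, lysozyme, was at 5256 and 4050.0 CPM in WT and at 972 and 527 CPM in Setdb1-KO, Mptx2, a pentraxin, at 1884 and 1579 CPM against 139 and 106 CPM, and the metalloproteinase Mmp7, which processes defensins, at 494 and 421 CPM against 154.5 and 126 CPM. Of the 22 Defa genes in the annotation, 18 were tested and 17 were called lower, against the same 7.23% of all genes tested. Defa23 was the exception, with 663 and 1764 CPM in WT against 626 and 218 CPM in Setdb1-KO (adjusted p = 0.1, edgeR). The Defa genes are near copies of each other, so the level of any single one is uncertain. Without WT 2, 9 of the 11 Paneth markers were called, and after subtraction of free RNA none was, with a median of -2.28. At an unadjusted p under 0.05 that fit held 1563 genes.

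The Defa genes also served as a check on free RNA, since they are made by 1 cell type. Together they took 34.3% and 32.1% of the UMIs of kept barcodes in WT and 7.36% and 5.06% in Setdb1-KO, or 33.2% ± 1.54 against 6.21% ± 1.63 (mean ± SD, n = 2 libraries per group). An exact permutation test over 2 against 2 libraries gave p = 0.333 (two-sided), the smallest that it can give. In barcodes with 10 to 100 UMIs, which hold free RNA and no cell, the share was 36.5% and 39.5% in WT and 16.03% and 24.3% in Setdb1-KO. In kept barcodes rich in enterocyte transcripts, which should make no defensin, it was 8.21% and 8.42% in WT and 1.09% and 1.40% in Setdb1-KO. From the median barcode the free share was estimated at 29.1% and 82.3% of UMIs in WT 1 and WT 2 and at 12.0% and 10.9% in Setdb1-KO 1 and Setdb1-KO 2. Barcodes with at least 50% of their UMIs from Defa genes were 10.6% and 5.95% of WT barcodes and 1.85% and 1.02% of Setdb1-KO barcodes. Enterocyte-rich barcodes gave a free share of 22.5% and 21.3% in WT and of 6.80% and 5.78% in Setdb1-KO, so for WT 2 the estimates lay far apart. With these shares 11 of 11 Paneth markers, 17 of 18 enterocyte markers, 14 brush border enzymes, 13 fat genes, 16 transporters, 14 drug genes, 7 Reg and antimicrobial genes, 2 MHC class II genes and 2 p53 targets were called lower. Retnlb and 7 of 12 tuft markers were called higher. Counts given elsewhere after subtraction of free RNA use the median barcode. The part of free RNA in the changes of Paneth genes was not tested beyond these subtractions.

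The enterocyte transcripts were compared in the same way between kept barcodes and droplets without cells. The 18 enterocyte markers summed to 6242 and 7497 CPM in kept WT barcodes and to 5924 and 6803 CPM in WT barcodes with 10 to 100 UMIs, both without TMM scaling. In Setdb1-KO they summed to 1949 and 2669 CPM in kept barcodes and to 3889 and 3271 CPM in barcodes with 10 to 100 UMIs, so the free RNA of the Setdb1-KO libraries was richer in these transcripts than the kept barcodes were. Cyp3a11 was at 71.1 and 14.8 CPM in that free RNA. At the level of cells, each barcode was thinned to 500 UMIs and counted as enterocyte-rich when at least 5% of its UMIs came from the 18 markers. Such barcodes were 420 of 7589 in WT 1 (5.53%, 95% Wilson interval 5.04% to 6.07%) and 98 of 3696 in WT 2 (2.65%, 2.18% to 3.22%). They were 8 of 4758 in Setdb1-KO 1 (0.168%, 0.0852% to 0.33%) and 41 of 10223 in Setdb1-KO 2 (0.401%, 0.296% to 0.544%). The intervals cover counting error only, and those of the 2 groups did not overlap. Between 4% and 6% lay 247 and 73 barcodes of WT and 7 and 31 of Setdb1-KO. The enterocyte-rich barcodes held 40.0% and 24.6% of all UMIs of the enterocyte markers in WT, and 4.84% and 12.4% in Setdb1-KO.

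**Figure D4:**
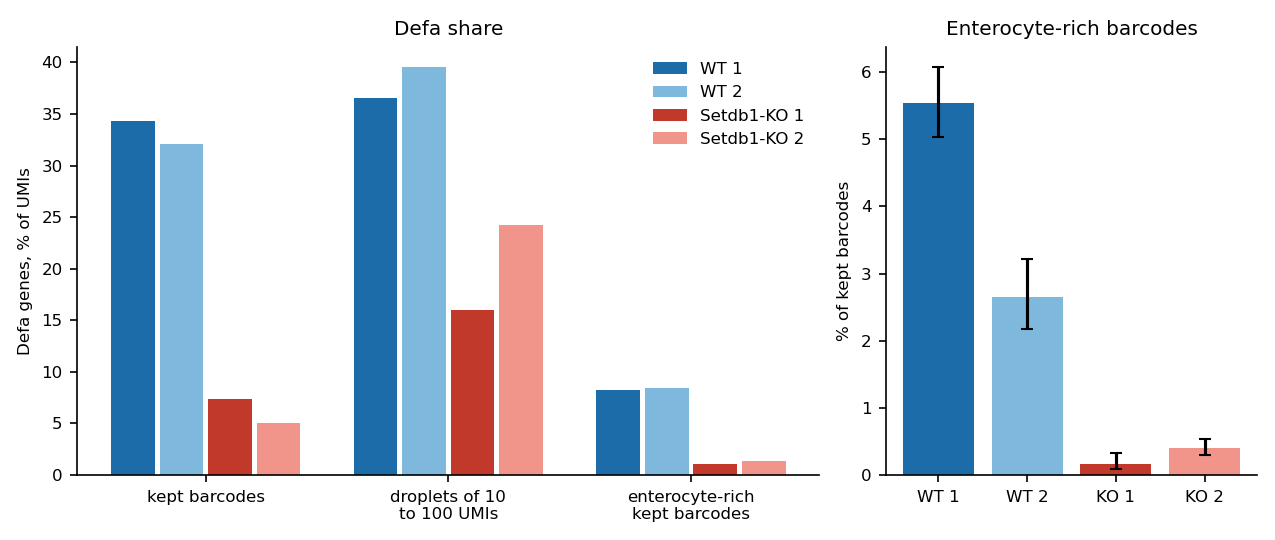
Left, percentage of UMIs from Defa genes (y axis) in kept barcodes, in droplets of 10 to 100 UMIs and in enterocyte-rich kept barcodes of each library. Right, percentage of kept barcodes that were enterocyte-rich, with 95% Wilson intervals as error bars; WT libraries were at 5.53% and 2.65% and Setdb1-KO libraries at 0.168% and 0.401%.

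Genes of epithelial defence were lower in part. Of 11 Reg and other antimicrobial genes, 8 were lower and none was higher, against 7.23% and 1.57% of all genes tested. The median was -1.31. The lectin Reg3g had 1692 and 3349 CPM in WT and 380 and 681 CPM in Setdb1-KO, Reg3b 1328 and 2476 CPM against 325 and 557 CPM, and the oxidase Duox2 12.3 and 10.99 CPM against 7.10 and 4.66 CPM. Of the list, 5 were called without WT 2, 5 with no scaling beyond library totals and 3 after subtraction of free RNA. Reg3g and Reg3b lost their calls without WT 2 and after that subtraction, and Duox2 after that subtraction, without WT 1, without Setdb1-KO 2, with no scaling, with DESeq2 and at the higher UMI minimums. Of 7 genes of MHC class II antigen presentation, H2-Aa (98.4 and 123 CPM against 39.3 and 63.9 CPM) and H2-Ab1 (60.5 and 66.3 CPM against 20.5 and 29.8 CPM) were lower, against 7.23% of all genes tested, and 5 were not called. The number lower was 1 without WT 2 or without Setdb1-KO 1, 6 without Setdb1-KO 2, 5 with the replicate block and none after subtraction of free RNA. Of 17 tested genes of interferon response and nucleic acid sensing, 2 were lower and 2 higher, against 7.23% and 1.57% of all genes tested, with a median of -0.22. Bst2, tetherin, was higher at 16.8 and 34.0 CPM in Setdb1-KO against 8.04 and 14.0 CPM in WT, and Ifi44 was higher with 12 and 51 UMIs against 6 and 0. Ifit1 (2.68 and 2.98 CPM against 1.10 and 0.549 CPM) and Stat2 (6.22 and 7.07 CPM against 3.38 and 3.02 CPM) were lower. These calls rest on single libraries, with 1 gene higher and 1 lower without WT 1, 1 and 2 without WT 2, 2 and 4 without Setdb1-KO 1, and none in either direction without Setdb1-KO 2 or after subtraction of free RNA. Cdkn1a, the p53 target that stops the cell cycle, was lower at 12.7 and 12.2 CPM against 35.6 and 38.6 CPM, and with Fas made 2 of 10 tested p53 targets called lower, against 7.23% of all genes tested. Without Setdb1-KO 1, 4 p53 targets were lower and 1 higher, the replicate block called 5 lower, and after subtraction of free RNA none was called. Of 8 genes of the regenerative and fetal-like list, Areg, a growth factor of the EGF family, was lower (1.02 and 2.16 CPM against 9.57 and 11.9 CPM) and 7 were not called, so that 1 of 8 stood against 7.23% of all genes tested. With no scaling beyond library totals the interferon list had 5 genes higher and 1 lower, with a median of 0.27. The p53 targets then had 1 higher and 1 lower (median -0.06) and the regenerative list 3 higher and 1 lower (median 0.08). That fit called 3320 higher and 495 lower of all 12201 genes tested, with a median of 0.53.

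The hormone gene Ghrl, Retnlb, Mptx1, Tff2 and several transcripts of unknown function were among the higher genes with the smallest p-values. Ghrl, the hormone ghrelin, was at 2.93 and 2.98 CPM in WT and at 52.6 and 87.6 CPM in Setdb1-KO, with no overlap between groups (log2 fold change 4.57 ± 0.33, SE, n = 2 libraries per group, edgeR adjusted p = 1.39e-06). In barcodes with 10 to 100 UMIs Ghrl was at 24.1 and 8.46 CPM in WT and at 35.6 and 36.9 CPM in Setdb1-KO, without TMM scaling, from 20, 62, 15 and 10 UMIs, so the groups were closer there than in kept barcodes. In the WT cells 311 CPM of Ghrl lay in the enteroendocrine-like class and at most 4.36 CPM in any other named class. Retnlb, a protein that goblet cells secrete into the lumen, was at 16.3 and 25.4 CPM in WT and at 139.5 and 138 CPM in Setdb1-KO. Mptx1, a pentraxin, was at 53.4 and 65.8 CPM against 249 and 331 CPM, and Tff2, a trefoil peptide, at 1.95 and 2.98 CPM against 11.2 and 10.7 CPM. Retnlb, Mptx1 and Tff2 all had their highest WT level in the goblet-like class, which was the home of 10 of the 152 higher genes (6.58%, against 9.70% of all). Micu3, a regulator of mitochondrial calcium uptake, and Akr1e1, an aldo-keto reductase, were each at 2.68 and 3.45 CPM in WT, and at 12.3 and 13.7 CPM and 11.2 and 15.1 CPM in Setdb1-KO. Ifi27l2a, an interferon-induced gene, had 1.16 and 0.785 CPM against 6.09 and 6.79 CPM. Alkbh2, a DNA repair enzyme, had 3.29 and 2.51 CPM against 9.81 and 13.6 CPM, and Bex1 had 8.59 and 14.4 CPM against 23.4 and 36.4 CPM. Mtus2 had 1.04 and 0.942 CPM against 5.75 and 5.76 CPM. Of these genes, Ghrl, Micu3, Akr1e1 and Mtus2 stayed called in each of the 20 alternative fits. Retnlb, Mptx1, Ifi27l2a and Alkbh2 lost their calls after subtraction of free RNA, Mptx1 also with all 8 libraries in one fit, Tff2 with barcodes thinned to 500 UMIs and Bex1 without WT 1.

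Some higher transcripts were almost absent from the lineage-traced WT cells. Gm14091, an RNA annotated as antisense at chr2:118829874-118834122 on the minus strand, had 4 and 1 UMIs in WT and 101 and 303 UMIs in Setdb1-KO, which made it the higher gene with the smallest p-value (log2 fold change 5.40 ± 0.39, SE, n = 2 libraries per group). How strand was used in counting was not given in the sources used here, so reads of its sense partner cannot be told apart. Gm16867 had no UMI in either WT library and 34 and 126 UMIs in Setdb1-KO, at least 29.6-fold higher against a floor of 3 UMIs over both WT libraries. AV039307 had 1 UMI in WT and 94 in Setdb1-KO, a ratio of 52.2 with a 95% counting interval of 9.15 to 2084. The lincRNA Gm42031, at chr8:85125872-85132289, rose from 8.59 and 7.69 CPM to 40.5 and 46.8 CPM and the lincRNA Gm42047, at chr8:121833247-121841178, from 1.10 and 2.36 CPM to 11.2 and 8.54 CPM. Eif3j2, which encodes a subunit of a translation initiation factor, rose from 3.78 and 2.98 CPM to 33.2 and 30.5 CPM. Its close copy Eif3j1 was at 213 and 199.5 CPM in WT and at 166 and 158 CPM in Setdb1-KO, and reads shared between the copies make the split uncertain.

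Tuft cell markers were the one list with most members higher. Of 14 markers 12 were tested and 9 were called higher, against 1.57% of all genes tested. All 12 had positive log2 fold changes, with a median of 1.08. Gng13, a G protein subunit of taste signalling, was at 7.92 and 11.2 CPM in WT and at 21.3 and 24.99 CPM in Setdb1-KO. Dclk1, a kinase that marks tuft cells, was at 6.40 and 3.61 CPM against 11.7 and 15.2 CPM, and Rgs13 at 8.84 and 7.54 CPM against 17.5 and 17.0 CPM. The master regulator Pou2f3 did not pass the test, with 18, 1, 15 and 50 UMIs in WT 1, WT 2, Setdb1-KO 1 and Setdb1-KO 2. The summed level of the list, scaled by TMM, was 68.1 and 61.9 CPM in WT and 123.5 and 158 CPM in Setdb1-KO. The number called was 4 of 12 without WT 2, 5 without WT 1, 6 without Setdb1-KO 2, 2 of 11 with barcodes thinned to 500 UMIs and none after subtraction of free RNA, with medians of 0.97, 1.25, 0.93, 0.99 and 1.40.

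Of 14 tested enteroendocrine markers, 3 were called higher, namely Ghrl and the transcription factors Neurog3 (1.95 and 1.88 CPM in WT, 4.48 and 3.67 CPM in Setdb1-KO) and Neurod1 (3.72 and 1.73 CPM, 6.68 and 6.34 CPM). Neurog3 starts the enteroendocrine fate and Neurod1 follows it. Both lost their calls with DESeq2, at the higher UMI minimums and with barcodes thinned to 500 UMIs. The same held after subtraction of free RNA and with all 8 libraries in one fit. Without WT 2, 1 marker of the list was called higher. Without Setdb1-KO 1, 5 were higher and 1 lower, and without Setdb1-KO 2, 3 were higher and 4 lower and the median fell from 0.40 to -0.07. Insm1, another early factor of this lineage, was higher at 3.72 and 3.46 CPM against 1.28 and 1.88 CPM. The other hormones and granule proteins did not pass, such as Chga at 45.7 and 57.5 CPM in WT and 15.6 and 34.6 CPM in Setdb1-KO (log2 fold change -1.02 ± 0.32, SE, n = 2 libraries per group, edgeR adjusted p = 0.0757), and Gcg at 29.4 and 9.42 CPM against 33.4 and 72.4 CPM. Of 12 goblet markers, Retnlb alone was called, and 10 had negative log2 fold changes, with a median of -0.38. With no scaling beyond library totals 2 were higher and the median turned to 0.17. Without Setdb1-KO 1, 2 goblet markers were higher and 2 lower, the replicate block called 1 higher and 1 lower, and after subtraction of free RNA none was called. Muc2, the mucin of the goblet cell, had 1584 and 1428 CPM in WT and 1059 and 826 CPM in Setdb1-KO (log2 fold change -0.68, edgeR adjusted p = 0.279). Of 17 tested secretory factors and Notch genes, Neurog3 and Insm1 were higher and Bhlha15, a factor of secretory maturation at home in Paneth-like cells, was lower (9.26 and 7.85 CPM against 4.14 and 3.36 CPM). Over all genes tested 7.23% were lower and 1.57% higher. Atoh1, which starts the secretory fate, was at 28.4 and 31.1 CPM in WT and at 39.0 and 32.1 CPM in Setdb1-KO, and Hes1, its Notch-driven repressor, at 271 and 200.5 CPM against 357 and 264 CPM. Neither passed the test. No gene of these factors was called without WT 1 or after subtraction of free RNA, 1 was higher and 1 lower without WT 2, 2 were higher and 2 lower without Setdb1-KO 1, and DESeq2 called none higher and 1 lower. With no scaling beyond library totals 7 of these factors and 8 of the 14 enteroendocrine markers were higher and none was lower. That fit called 3320 higher and 495 lower of all 12201 genes tested. Insm1 also lost its call without Setdb1-KO 2.

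None of the 14 stem cell markers and none of the 14 proliferation markers was called by edgeR, nor any of 16 genes of the H3K9 methylation machinery or of 11 stress and immediate early genes. Over all genes tested edgeR called 1.57% higher and 7.23% lower. DESeq2 called none of these list members either. At an unadjusted p under 0.05 in edgeR 3 stem cell markers, 2 proliferation markers and 1 gene of the H3K9 machinery were higher. At the same limit 3 stress genes were lower, and 2475 of all 12201 genes tested lay under it in either direction. Lgr5 was at 12.2 and 10.4 CPM in WT and at 16.8 and 15.5 CPM in Setdb1-KO (log2 fold change 0.50 ± 0.22, SE, n = 2 libraries per group, edgeR adjusted p = 0.218). Olfm4, a marker of the crypt base, was at 459 and 399 CPM against 563 and 417.5 CPM, and Mki67, a marker of dividing cells, at 40.8 and 36.1 CPM against 56.2 and 34.6 CPM. The signs were nonetheless mostly positive, in 13 of 14 stem markers (median 0.32) and 13 of 14 proliferation markers (median 0.39), and with no scaling beyond library totals 11 and 13 of them were called higher. The replicate block called 4 stem cell markers, 4 proliferation markers and 1 gene of the H3K9 machinery higher and 5 stress genes lower. With no scaling 9 genes of the H3K9 machinery and 1 stress gene were called higher. Of all 12201 genes tested, the fit with no scaling called 3320 higher and 495 lower. The replicate block called 935 higher and 1623 lower. Without Setdb1-KO 1, 1 stem cell marker and 2 proliferation markers were called higher and 1 stress gene lower, and the median of the stem cell markers was 0.08.

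The Lgr5+ sort of the same series, with 2 WT and 2 Setdb1-KO libraries of cells from Lgr5-GFP-CreERT2 and Lgr5-GFP-CreERT2/Setdb1lox/lox mice, without the lineage reporter, allowed each Setdb1-KO effect to be compared between the 2 kinds of sample. In 1 fit over the 8 libraries 13808 genes were tested for a difference of the effect, which was lower in the lineage-traced cells for 834 genes (6.04%) and higher for 211 (1.53%). Sample kind, sort and preparation cannot be told apart in this difference. Of the 882 genes lower in lineage-traced Setdb1-KO, 665 were among those 834. The 882 were called in the same lineage-traced libraries that form 1 side of this difference, so the 665 are no independent support. In the Lgr5+ sort 19 of the 882 were also called lower and 50 were called higher, against 91 and 167 of all 13808 genes. Apoa4, for example, changed by a log2 of -5.77 in the lineage-traced cells and by 1.22 ± 0.19 (SE) in the Lgr5+ sort (n = 2 libraries per group, edgeR adjusted p of the difference 1.57e-07). Cyp2b10 was 1 of the 50, with a log2 fold change of 2.10 in the sort. Of the 191 higher genes, 17 were also called higher in the Lgr5+ sort and 3 were called lower, against 167 and 91 of all 13808 genes. Eif3j2 rose in both, with log2 fold changes of 3.19 and 2.43, and so did Gm14091 (5.43 and 3.08) and Gm42031 (2.42 and 4.69). The effect on Ghrl was larger in the lineage-traced cells, by 2.91 ± 0.62 on the log2 scale (SE, n = 2 libraries per group, edgeR adjusted p = 0.0139), and its WT level was far higher in the sort, at 120.2 and 179 CPM.

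**Figure D5:**
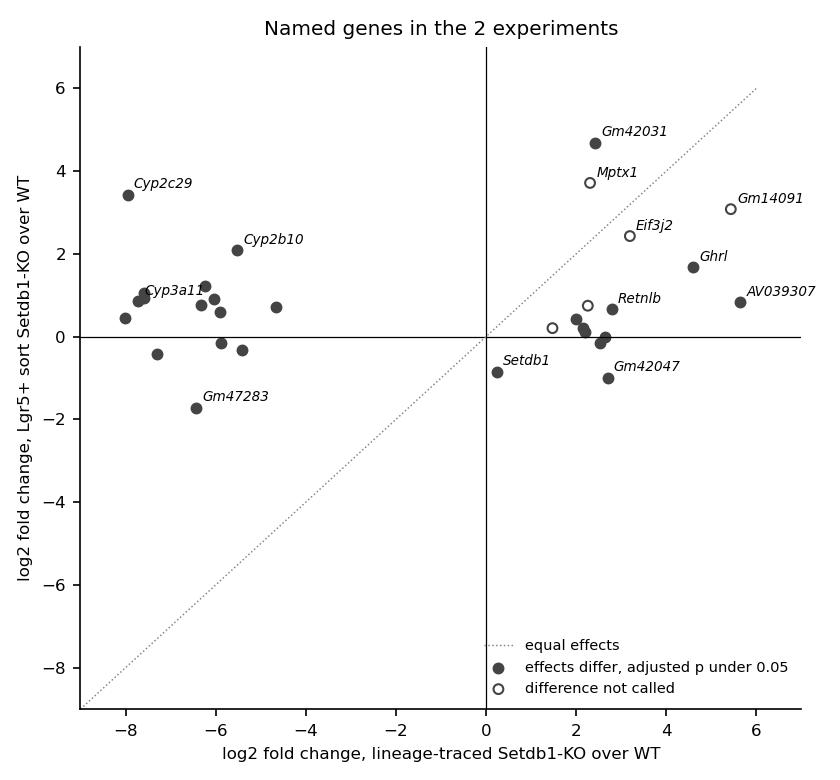
Log2 fold change of Setdb1-KO over WT in the lineage-traced cells (x axis) and in the Lgr5+ sort (y axis) for the named genes except Gm16867, filled where the 2 effects differed at an adjusted p under 0.05. The lower genes lie far left, as for Cyp3a11 at -7.72 and 0.85 and Gm47283 at -6.45 and -1.72, and Eif3j2, at 3.19 and 2.43, lies near the dotted line of equal effects.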

How the data were processed

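Single-cell RNA libraries (10x Genomics, 3′) were analysed from 4 lineage-traced samples, with 4 of the Lgr5+ sort for comparison. The deposited files hold counts, whole UMIs per gene and barcode for all barcodes, which the authors made with Cell Ranger (6.1.1 in the submitters' processing notes, an earlier version in the file headers) on mm10, and nothing was normalized. Files of the other assays were not used here. Barcodes were filtered as stated in the report and UMIs summed per library. edgeR 4.0.16 (TMM, filterByExpr, quasi-likelihood test, Benjamini-Hochberg, 12201 genes of 32286 features, R 4.3.3) compared groups, with an interaction term over 8 libraries for the difference between sample kinds. CPM are TMM-scaled unless said otherwise. WT barcodes were clustered with Seurat 5.3.0 (2000 variable genes, 10 components, resolution 0.5). A home class needed 10 WT UMIs. Positions come from GENCODE M21 (GRCm38).

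Named genes were Setdb1 and, among genes with an adjusted p under 0.05, an absolute log2 fold change of at least 1 and groups that did not overlap, the 15 with the smallest p in each direction and the 5 with the largest change in each direction among those with a mean of at least 20 CPM. Members of 25 fixed lists were added. The members and lists were chosen with earlier results of these data known. Genes in the closing observations and the uncalled list members given as examples out of order of p were chosen after their values were seen. Doublets called by Scrublet (scanpy 1.11.5, at most 3 per library) were kept, since so few were called. Whether the caller missed doublets was not tested. The fits were tested on simulated counts. Alternatives were other scalings, filters, DESeq2 1.42.0, thinning, subtraction of free RNA (Defa share of the median barcode over that of barcodes with 10 to 100 UMIs), a replicate block and each library left out. Removal of the highest doublet scores and a free RNA share from enterocyte-rich barcodes were added after seeing the data.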

Additional observations from a re-analysis of the deposited data

Results flagged for a closer look

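The effect of Setdb1-KO differed between the lineage-traced cells and the Lgr5+ sort for 26 named genes and for Setdb1, by an interaction test (edgeR, adjusted p under 0.05, n = 2 libraries in each of 4 groups). Apart from Setdb1, the named genes were picked by small p or large change in these same lineage-traced libraries. Such a choice favours a difference, so the count of 26 is no independent support. Values are log2 differences, lineage-traced minus sort. No cause was tested, and sort, sample kind and preparation cannot be told apart.

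Among genes lower in lineage-traced Setdb1-KO, the difference was -11.39 for Cyp2c29, -8.65 for Tmprss15, -8.57 for Cyp3a11, -8.52 for Ggt1, -8.47 for Ly6m, -7.62 for Cyp2b10, -7.46 for Slc2a2, -7.08 for Sult6b2, -6.95 for Cyp3a25, -6.88 for Akp3, -6.49 for Clca4a, -5.72 for Slc30a10, -5.39 for 2010106E10Rik, -5.10 for Ada and -4.72 for Gm47283. Several of these genes had almost no UMIs in the sort, as did Cyp2c29, which was at 0 in both WT libraries of the sort, so its difference depends on the fitted prior count and is no bound.

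Among genes higher in lineage-traced Setdb1-KO, the difference was 4.81 for AV039307, 3.69 for Gm42047, 2.91 for Ghrl, 2.67 for Mtus2, 2.65 for Ifi27l2a, 2.12 for Retnlb, 2.07 for Akr1e1, 1.94 for Micu3 and 1.56 for Alkbh2. Gm42031 went the other way at -2.27, since it rose more in the sort. Gm16867 had a fitted difference of 18.19, which is no bound since it was set against groups at 0. It was at 0 in both lineage-traced WT libraries and in both Setdb1-KO libraries of the sort, and at 1.17 and 1.03 CPM in WT of the sort. For Setdb1 the difference was 1.08, with 9.27 and 8.89 CPM in WT and 4.31 and 5.69 CPM in Setdb1-KO of the sort.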

How the results depend on the processing

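The counts of 191 higher and 882 lower genes moved with the processing. The count of higher genes was 3320 with no scaling beyond library totals, 395 with no filter on low counts, 105 with DESeq2, 102 with at least 2000 UMIs, 102 with barcodes thinned to 500 UMIs, 36 after subtraction of free RNA, 360 with all 8 libraries in one fit and 69 to 820 with 1 library left out. The count of lower genes was 495 with no scaling, 507 with at least 2000 UMIs, 201 after subtraction of free RNA and 526 to 1315 with 1 library left out. No gene called in the main test was called in the opposite direction in any of the 20 alternatives. With 1 library left out, the log2 fold change ran from -0.030 to 0.384 for Olfm4 and from -0.147 to 0.534 for Mki67, with the negative values without Setdb1-KO 1. With no scaling, Hnf4a was at 0.31, Cdx2 at 0.33, Gata4 at 0.21 and Eif3j1 at 0.19, and none of these 4 passed the test there or in the main test. Olfm4 and Mki67 did not pass in the main test and were called higher with no scaling, at 0.75 and 0.79. The excess of enterocyte-rich barcodes in WT, 3.81 percentage points, was 9.26 at a threshold of 2% and 1.15 at 10%. The share of lower genes at home in the enterocyte-like class was 76.9% at a clustering resolution of 1, where that of all genes tested was 17.4%. The cause of these shifts was not tested.

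Replicate numbers in the labels did not state a shared animal or day. Over the genes tested, deviations from the group mean correlated at 0.402 between WT 1 and Setdb1-KO 1. Replicate 2 gives the same value by construction, as each group held 2 libraries. With the replicate block 935 genes were higher and 1623 lower. The block also gave 593 genes with a higher effect in the lineage-traced cells than in the sort, against 211 without it. A library left out leaves 1 sample in its group, assumed to vary like the other group. Depth limits low genes: at 970.5 to 2087 median UMIs per barcode a gene with few UMIs could not be placed in a class.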

Other observations

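Genes in this section were chosen after their values were seen. Among the lower genes outside the lists were 7 that handle iron, calcium, folate or vitamin B12, picked by hand and not as a tested group. Slc40a1, the iron exporter ferroportin, was at 44.4 and 37.7 CPM in WT and at 2.28 and 2.30 CPM in Setdb1-KO. Cybrd1, a ferric reductase of the brush border, was lower by -3.20 on the log2 scale, Slc11a2, the iron importer, by -1.50 and the heme exporter Flvcr1 by -2.53. S100g, a calcium-binding protein, was at 469 and 542 CPM against 22.4 and 30.3 CPM. Slc46a1, the folate carrier, changed by -4.10 and Cubn, the receptor for vitamin B12 with intrinsic factor, by -4.57 (edgeR adjusted p-values of 3.40e-07 to 0.000657 for these 7 genes, n = 2 libraries per group). Of other enterocyte genes, Btnl1, which acts on intraepithelial T cells, changed by -2.34, the membrane mucin Muc3 by -3.21 and the transcription factor Nr1i3 by -1.76. Flvcr1, Slc46a1 and Nr1i3 lost their calls after subtraction of free RNA.

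Mboat4, the enzyme that acylates ghrelin, rose together with Ghrl, from 4 and 3 UMIs in WT to 18 and 34 UMIs in Setdb1-KO (log2 fold change 2.03, edgeR adjusted p = 0.0337). The call was lost with DESeq2, at the higher UMI minimums, after subtraction of free RNA and without WT 1, Setdb1-KO 1 or Setdb1-KO 2. Isl1, a factor of endocrine cells, rose by 1.62 and lost its call with thinned barcodes, after subtraction of free RNA, with all 8 libraries in one fit and without WT 2 or Setdb1-KO 2. Several genes almost silent in lineage-traced WT were called higher. The X-linked Xlr3a had 5 and 2 UMIs in WT and 31 and 76 in Setdb1-KO. Xlr3b had 1 UMI in WT and 70 in Setdb1-KO, a ratio of 38.9 (95% counting interval 6.76 to 1558). Xlr4b had none in WT and 12 and 27 UMIs in Setdb1-KO, at least 7.22-fold higher against a floor of 3 UMIs over both WT libraries. The Xlr genes are close copies, so reads may be split between them. Ifnk, an interferon, had 1 UMI in WT and 65 in Setdb1-KO, a ratio of 36.1 (6.26 to 1448), and in the Lgr5+ sort it was at 0 in WT and at 1.25 and 1.49 CPM in Setdb1-KO. In WT of the sort Xlr3a was at 1.51 and 2.56 CPM and Xlr3b at 1.73 and 1.98 CPM, so neither was almost silent there. Xlr3a and Xlr3b did not pass the test in the sort, where their log2 fold changes were -0.44 and -0.86, and the effect differed between the 2 kinds of sample (edgeR adjusted p of 0.0134 and 0.000262, n = 2 libraries per group). Ooep, an oocyte gene, had 6 and 1 UMIs against 16 and 86. In the sort it had 4.45 and 2.67 CPM in WT and 17.8 and 8.765 CPM in Setdb1-KO. Its log2 fold change there was 1.88 (edgeR adjusted p = 0.0218). Xlr3a, Xlr3b, Xlr4b, Ifnk and Ooep lost their calls after subtraction of free RNA, Xlr4b also without WT 1 and Ooep also without Setdb1-KO 2. In the other direction, the zinc finger genes Zfp990 and Zfp979 had 44 and 35 UMIs in WT and none in Setdb1-KO, at least 26.4-fold and 21-fold lower against 3 UMIs over both Setdb1-KO libraries. Both were all but absent from WT of the Lgr5+ sort too. There Zfp990 was at 0.107 and 0.043 CPM in WT and at 0.030 and 0.074 CPM in Setdb1-KO. Zfp979 was at 0 in both WT libraries of the sort. Neither passed the test in the sort.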
